A study of Mus musculus with 12 samples.

Results

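The Bcl2 family decides whether a cell keeps its mitochondria intact or dies by apoptosis, and 10 of its genes were followed here through inguinal white adipose tissue (iWAT) of mice with and without the transcription factor ATF4 in fat cells. The genes were chosen by name, not by their values. They were the survival genes Bcl2a1a, Bcl2a1b, Bcl2a1d, Bcl2, Bcl2l1 and Mcl1, the effectors Bax and Bak1, and the BH3-only genes Bcl2l11 and Bbc3. All 10 were among the 14159 genes with deposited values, and all 10 passed the filter on low values. Atf4AKO mice carried floxed Atf4 alleles and an Adipoq-Cre transgene, whose promoter is active in adipocytes and not in blood cells, and floxed littermates without Cre were called Atf4WT, all on a C57BL/6 background. Each genotype was kept at room temperature (RT, 22 °C) or moved to 5 °C for 24 h, with 3 mice in each of the 4 groups, and the age of these mice is not given in the sources used here. Polyadenylated RNA of the whole fat pad was sequenced with a strand-specific kit, so every value adds up all cells of the pad, and fewer cells of a type cannot be told apart from less RNA in each of them. The values are normalized counts, namely reads divided by the size factor of the library.

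Survival proteins of the family hold the pore-forming effectors BAX and BAK in check at the outer mitochondrial membrane. BH3-only proteins such as BIM (Bcl2l11) and PUMA (Bbc3) bind the survival proteins and so free the effectors, after which cytochrome c leaves the mitochondria and caspases are activated. The A1 proteins, encoded in the mouse by the Bcl2a1 gene copies, are best known from blood cells, where activated lymphocytes and myeloid cells make them, whereas Mcl1 and Bcl2l1 are used by most tissues.

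The 3 Bcl2a1 genes are near-copies on chromosome 9 (GENCODE M21, mm10), with Bcl2a1d at chr9:88723285-88731914 on the minus strand, Bcl2a1a at chr9:88956900-88962419 on the plus strand and Bcl2a1b at chr9:89199209-89207827 on the plus strand. Over 516 coding bases Bcl2a1a and Bcl2a1b differed at 11, Bcl2a1a and Bcl2a1d at 7 and Bcl2a1b and Bcl2a1d at 6. The first 60 coding bases hold 6 of the 12 variable positions and are shown because such bases tell the copies apart. They lie in the first coding exon at chr9:88957051-88957110, chr9:89199360-89199419 and chr9:88731660-88731719, and capitals mark the positions at which the copies differ.
Bcl2a1a: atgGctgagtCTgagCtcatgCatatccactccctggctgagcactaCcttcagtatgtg
Bcl2a1b: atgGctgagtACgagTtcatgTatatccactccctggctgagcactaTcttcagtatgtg
Bcl2a1d: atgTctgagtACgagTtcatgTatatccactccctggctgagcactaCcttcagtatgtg

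The authors counted uniquely mapped reads, so a read that mapped equally well to more than 1 copy was not counted for any of them. Of all 150-base windows of the transcript, 71.8% in Bcl2a1a, 85.8% in Bcl2a1b and 69.7% in Bcl2a1d occur in no other annotated copy. A window stands for 1 read end, and what the other end of a pair would add was not counted. The split of reads among the 3 copies is therefore uncertain, and their levels are not compared with each other. The copies also moved together over the 12 libraries (Pearson's r from 0.72 to 0.93). In every count or median over the members below, they are not 3 independent genes. Exons of Bcl2a1b also overlap those of Gm29094 on the same strand, which has no listed value. Bcl2a1c, the fourth copy, is not among the genes with values.

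Promoter sequences came from RefSeq (GRCm38.p6). The windows from 250 bases before to 50 bases after the annotated starts of the 10 genes, 15 windows in all, were searched on both strands for 3 motifs. These were TGATGCAA, the composite element that ATF4 is known to bind with C/EBP partners, GAGGAAGT, a core that ETS factors such as PU.1 bind, and the CRE TGACGTCA. TGATGCAA occurred in the windows of the 3 Bcl2a1 copies and in that of no other member, against 0.895% of all 32851 windows. It begins 5 bases after the RefSeq start in Bcl2a1a and Bcl2a1d, and 40 bases before the RefSeq start of Bcl2a1b. The GENCODE positions given above differ from these starts, and by them the match lies inside the gene in all 3 copies. The 30 bases around it are shown with the match in capitals, at chr9:88956913-88956942 (plus strand), chr9:89199222-89199251 (plus strand) and chr9:88731828-88731857 (minus strand).
Bcl2a1a: acgctgtgacaTGATGCAAacagaaattcc
Bcl2a1b: acgctgtgacaTGATGCAAacaaaaattcc
Bcl2a1d: acgctgtgacaTGATGCAAacagaaattcc

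Since the copies share these bases, the 3 matches count as 1. GAGGAAGT occurred in the 3 copies and in Bak1, against 3.20% of all windows, and TGACGTCA in none of the 15 windows, against 1.79%. In the copies GAGGAAGT stands 104 bases before the RefSeq start of Bcl2a1a and Bcl2a1d and 148 before that of Bcl2a1b. It is shown in capitals at chr9:88956795-88956834, chr9:89199104-89199143 and chr9:88731936-88731975. A match is a string of letters and not evidence of binding.
Bcl2a1a: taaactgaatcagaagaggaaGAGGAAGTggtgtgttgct
Bcl2a1b: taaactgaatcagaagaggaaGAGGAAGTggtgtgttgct
Bcl2a1d: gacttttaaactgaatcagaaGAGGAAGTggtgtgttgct

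The libraries held 25719476 to 29105147 reads on the listed genes. Atf4 had 4107 to 7644 normalized counts in the 6 Atf4WT libraries and 788 to 1639 in the 6 Atf4AKO libraries, and Ucp1, the uncoupling protein of thermogenic fat, had 204 to 1097 at RT and 73632 to 119558 after cold, so both labels hold. The 10 white adipocyte markers averaged 15.8 to 16.3 on the log2 scale in every library. Some libraries stood apart in other cell types. Markers of B and T cells (36 of 38 listed) averaged 6.82 to 9.29 in Atf4WT cold, 3.61 to 6.73 in Atf4WT RT, 3.79 to 4.92 in Atf4AKO RT and 3.20 to 4.68 in Atf4AKO cold, and this average is called the lymphocyte score. Lymph node stroma markers (3 of 7 listed) averaged 6.46 to 7.51 in Atf4WT cold and 4.39 to 5.89 in the other groups. Macrophage markers (13 of 14 listed) were low in replicate 1 of Atf4WT cold (9.08) and of Atf4AKO cold (8.20), against 10.2 to 11.1 in the other 10 libraries. Skeletal muscle markers (4 of 6 listed) were high in Atf4WT RT replicate 2 (11.96), Atf4WT cold replicate 0 (10.6) and Atf4AKO cold replicate 1 (8.24), against 3.92 to 5.46 elsewhere. No epithelial marker of 6 was listed.

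Per kb of exon, Mcl1 was the most abundant of the 10 members. In Atf4WT RT it had 1623 ± 66.4 normalized counts per kb (SD, n = 3), followed by Bax with 488 ± 14.7, Bak1 with 357 ± 14.2, Bcl2l1 with 344 ± 51.7 and Bbc3 with 213 ± 62.6. Bcl2 had 61.1 ± 1.80, the copies Bcl2a1b, Bcl2a1d and Bcl2a1a had 59.98 ± 32.8, 40.1 ± 29.9 and 10.6 ± 7.49, and Bcl2l11 had 28.3 ± 4.03. The ranges of Bak1 and Bcl2l1 overlapped. Those of Bcl2a1b and Bcl2a1d each overlapped those of Bcl2 and Bcl2l11. The order within these pairs is not settled, and the copies are not ranked against each other. Exon lengths came from GENCODE, and the counting annotation of the authors may differ.

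Among the survival genes followed here, the mixture of transcripts shifted toward the Bcl2a1 copies in Atf4WT cold. The sum used below holds only these genes. It leaves out other survival genes of the family, such as Bcl2l2, with a mean of 2777 normalized counts in Atf4WT RT against 1577 for Bcl2l1. On the per-kb scale the 3 copies together made up 9.12%, 16.3% and 21.9% of this sum in the 3 Atf4WT cold libraries. They made up 2.42% to 8.30% in Atf4WT RT, 3.16% to 11.2% in Atf4AKO RT and 1.79% to 6.26% in Atf4AKO cold. Atf4WT cold replicate 0 lay within the Atf4AKO RT range, and the other two lay above every other library. Mcl1 held 63.5% to 80.2% of the sum in all libraries.

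**Figure D1:**
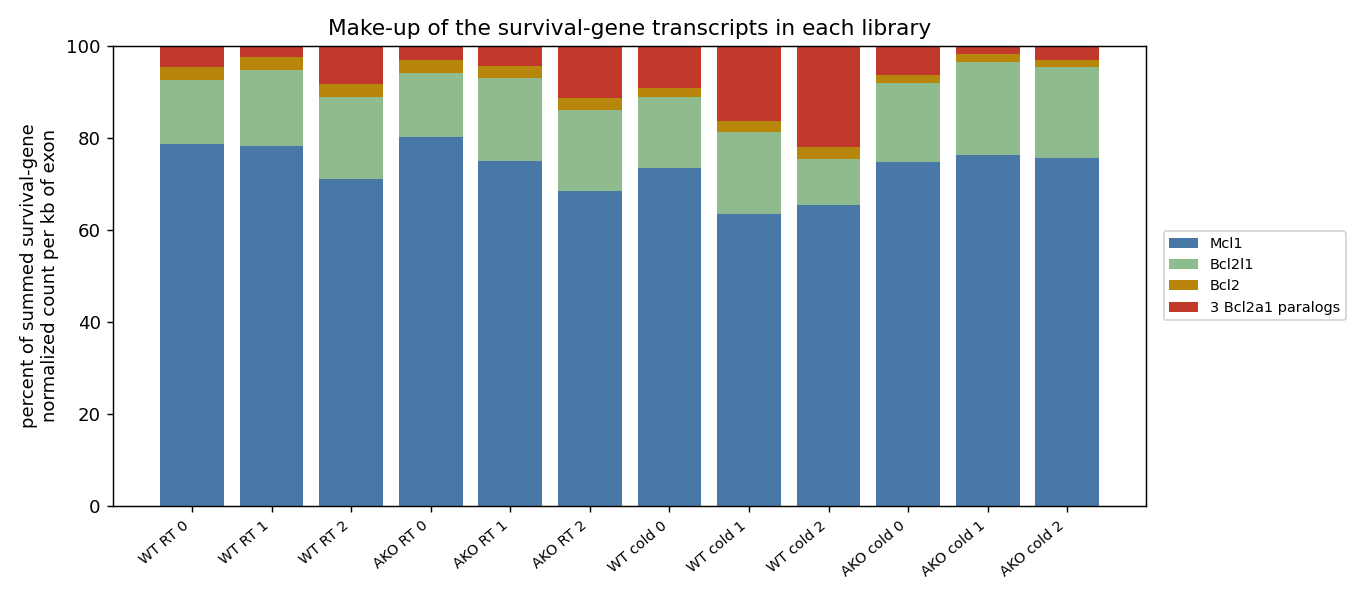
Share of Mcl1, Bcl2l1, Bcl2 and the Bcl2a1 copies in their summed normalized count per kb of exon (y axis, percent). Bars are the 12 libraries (x axis, genotype, temperature and replicate number). The Bcl2a1 copies reach 21.9% in Atf4WT cold replicate 2 and 1.79% in Atf4AKO cold replicate 1, and Mcl1 is the largest part of every bar.

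The first comparison asked what 24 h of cold changed in Atf4WT iWAT. Bcl2a1a and Bcl2a1b rose, 5.05-fold and 3.56-fold, and no member fell. With limma and Benjamini-Hochberg adjustment over 13404 genes, 2 of the 10 members passed an adjusted p of 0.05, a share that stands beside 31.9% of all genes tested (2273 higher and 2000 lower). The same 2 passed the threshold the study used for differentially expressed genes (DEGs), a fold change over 1.5 with an unadjusted p under 0.05, which 21.2% of all genes passed. The groups did not overlap for 5 members, all higher in the cold, against 46.8% of all genes in either direction. The median log2 change was 0.34 over the members and 0.00257 over all genes.

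Bcl2a1a had 4.59, 5.77 and 15.8 normalized counts in replicates 0, 1 and 2 of Atf4WT RT and 20.5, 54.9 and 66.9 in Atf4WT cold. Every cold library exceeded every RT library, and the log2 change was 2.34 ± 0.70 (SE), with a limma adjusted p of 0.0255. These values rest on 5, 6 and 17 reads at RT and 20, 52 and 71 in the cold. Bcl2a1b had 44.1, 25.0 and 77.9 at RT and 83.2, 183 and 270.3 in the cold. These groups also stood apart, with the lowest cold library just above the highest RT library, and the log2 change was 1.83 ± 0.64 with a limma adjusted p of 0.0486. Bcl2a1d had 33.1, 9.62 and 61.2 at RT and 40.1, 128 and 167 in the cold. Its groups overlapped, and its log2 difference of 1.77 ± 0.89 did not pass the test (limma adjusted p = 0.153).

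Both calls rested on few libraries. Without Atf4WT RT replicate 0, Atf4WT RT replicate 1, Atf4WT cold replicate 1 or Atf4WT cold replicate 2, no member passed, and the limma adjusted p was 0.0792 to 0.0881 for Bcl2a1a and 0.105 to 0.164 for Bcl2a1b. Neither call stood with the lymphocyte score in the model, where the log2 difference was 0.42 (limma adjusted p = 0.795) for Bcl2a1a and -0.18 (adjusted p = 0.899) for Bcl2a1b. The score itself did not overlap between these groups (3.61 to 6.73 in Atf4WT RT and 6.82 to 9.29 in Atf4WT cold). This fit can therefore hardly separate cold from the score.

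The other survival genes gave no call in Atf4WT. Bcl2 had 574, 542 and 563 normalized counts at RT and 365, 586 and 660.2 in the cold. Replicate 0 of the cold group lay below all RT libraries and the other two above them, and the log2 difference was -0.10 ± 0.19. Bcl2l1, which encodes BCL-XL, had 1374, 1521 and 1838 at RT and 1342, 2215 and 1283 in the cold, a log2 difference of -0.0032 ± 0.20 with a 95% interval from -0.43 to 0.43. Mcl1 had 5809, 5406 and 5428 at RT and 4770.5, 5851 and 6168 in the cold, with an interval of the log2 difference from -0.23 to 0.24.

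The effectors and BH3-only genes did not pass either. Bax had 778, 742 and 785 at RT and 862, 921 and 809 in the cold, and Bak1 had 874, 884 and 821 at RT and 949, 992 and 898 in the cold. For both genes all cold libraries were above all RT libraries, by log2 differences of 0.17 ± 0.11 (limma adjusted p = 0.252) and 0.14 ± 0.08 (adjusted p = 0.196). Bcl2l11 had 260.0, 195 and 225 at RT and 259.9, 312 and 444 in the cold. The lowest cold library lay just below the highest RT library, so the groups overlapped, and the log2 difference was 0.55 ± 0.21 (limma adjusted p = 0.0639), which passed with DESeq2 (adjusted p = 0.0351) and without Atf4WT cold replicate 0 (limma adjusted p = 0.028). Bbc3 had 479, 569 and 307 at RT and 680.0, 589 and 606 in the cold, a log2 difference of 0.51 ± 0.29 (limma adjusted p = 0.192). Exons of Bax overlap those of Gm45808 on the same strand, which has no listed value. Those of Bak1 overlap Ggnbp1 on the opposite strand, and the strand setting of the counting is not given.

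**Figure D2:**
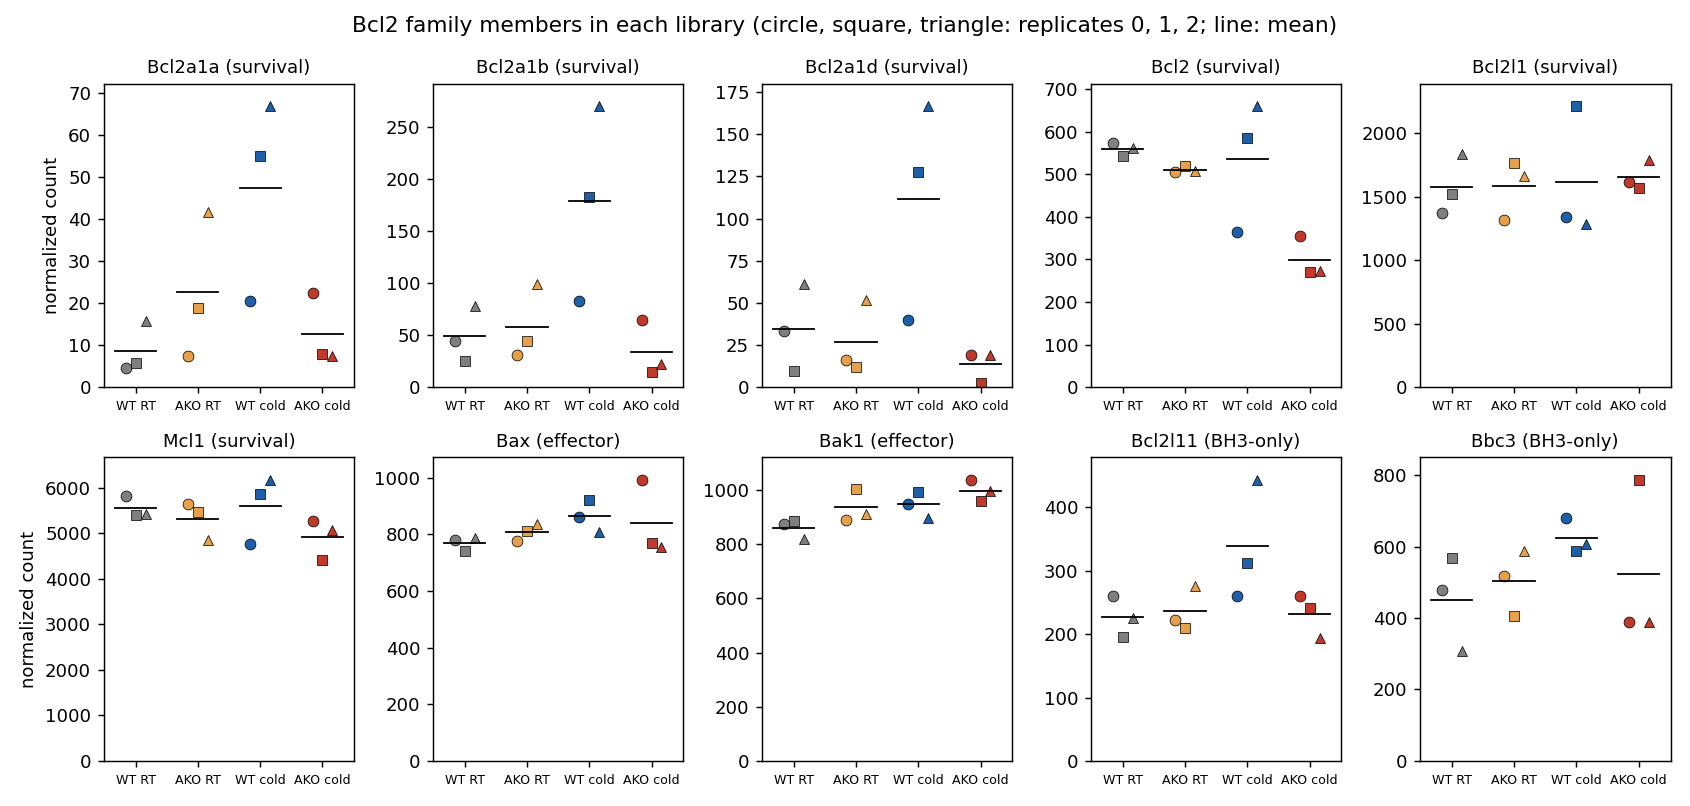
Normalized count (y axis, linear and starting at 0) of each of the 10 members in each library, by genotype and temperature (x axis), with a horizontal line at the mean of each group and the replicates shown as circle (0), square (1) and triangle (2). The Bcl2a1 copies peak in replicates 1 and 2 of Atf4WT cold, and Bcl2 is between 271 and 355 in Atf4AKO cold against 505 to 519 in Atf4AKO RT.

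The second comparison asked what the same cold exposure changed in Atf4AKO iWAT. Bcl2 fell to 0.582 of its RT level and was the only member that passed. That is 1 of 10 by adjusted p, against 25.9% of all genes (1988 higher and 1479 lower), and also 1 of 10 at the DEG threshold, against 17.2%. It was also the only member whose groups did not overlap, against 41.7% of all genes. The median log2 change was -0.07 over the members and -0.03 over all genes.

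Bcl2 had 505, 519 and 508 normalized counts in Atf4AKO RT and 355, 271 and 272 in Atf4AKO cold. The RT libraries lay close together, and all 3 cold libraries were below them. The log2 change was -0.78 ± 0.19, with a limma adjusted p of 0.0126. The call held without each of the 6 libraries in turn (-0.91 to -0.72, limma adjusted p 0.0109 to 0.046) and under all other settings tried (adjusted p 0.00136 to 0.0181). In the fit that included the lymphocyte score it was -0.70 ± 0.17 (limma adjusted p = 0.0123). An annotated gene on the opposite strand, D630008O14Rik, overlaps exons of Bcl2 and has no listed value.

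The Bcl2a1 copies were not called in Atf4AKO. Bcl2a1a had 7.44, 18.9 and 41.7 at RT and 22.3, 7.94 and 7.52 after cold, and Bcl2a1b had 30.7, 44.8 and 99.3 at RT and 64.8, 14.7 and 22.6 after cold. Bcl2a1d had 15.8, 11.9 and 52.0 at RT and 19.1, 2.27 and 19.3 after cold, and the value of 2.27 stands for 2 reads. For each copy the groups overlapped, Atf4AKO RT replicate 2 was the highest library, and the log2 differences were -0.67 ± 0.70, -0.86 ± 0.64 and -1.04 ± 0.89. The 95% intervals ran from -2.20 to 0.86, from -2.27 to 0.55 and from -3.00 to 0.93, so falls of such a size could not be detected with these libraries.

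The remaining members differed by less. Bcl2l1 had 1317 to 1768 at RT and 1570.2 to 1791 after cold, and Mcl1 had 4848 to 5631 at RT and 4408 to 5258 after cold. Bax had 775 to 836 at RT and 754 to 992 after cold, and Bak1 had 890 to 1005 at RT and 959 to 1037 after cold. Bcl2l11 had 209 to 276 at RT and 194 to 260.4 after cold. Bbc3 had 518, 406 and 586 at RT and 389, 787 and 390.0 after cold, so replicate 1 of the cold group alone was above the RT range and the other two were below it. Log2 differences of these 6 genes ran from -0.12 for Mcl1 to 0.09 for Bak1, and every group pair overlapped.

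**Figure D3:**
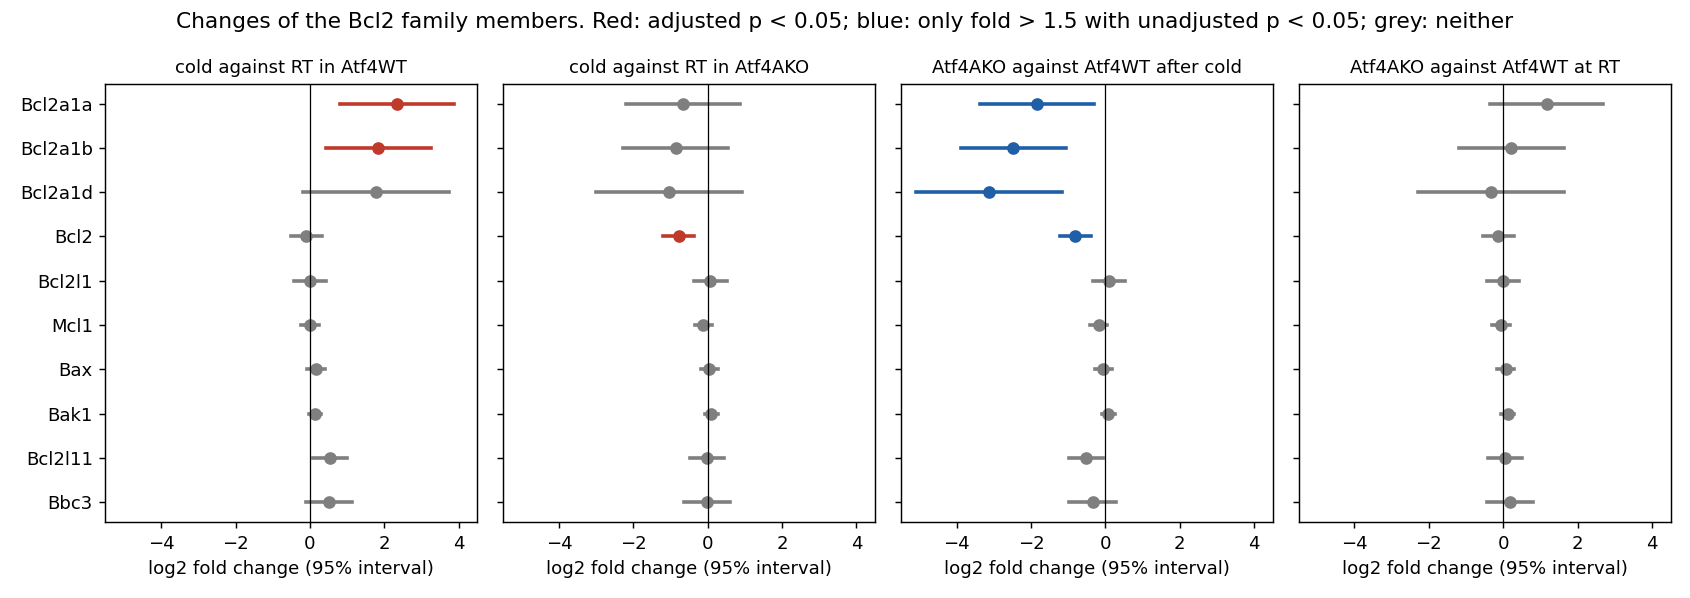
Log2 fold change (point) with its 95% interval (line) of each member in 4 comparisons (panels), from limma. Red marks an adjusted p under 0.05, blue a fold over 1.5 with an unadjusted p under 0.05 alone, and grey neither, and the intervals of the Bcl2a1 copies are several times wider than those of Mcl1, Bax and Bak1.

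After cold, 4 survival genes were lower in Atf4AKO than in Atf4WT at the DEG threshold, but none passed the adjusted p. These were Bcl2a1d, Bcl2a1b, Bcl2a1a and Bcl2, that is 4 of 10 members, all lower, against 6.4% of all genes (48 higher and 810 lower). All but Bcl2 are Bcl2a1 copies, which are not independent of each other. By limma adjusted p the count was 0 of 10, against 0.0298% of all genes, which were 4 genes, and 5 members had an unadjusted p under 0.05, against 11.7% of all genes. On the recovered reads edgeR called 0 members and DESeq2 called 3, namely Bcl2 (adjusted p = 0.00213), Bcl2a1b (adjusted p = 0.00804) and Bcl2a1d (adjusted p = 0.0106). The share of all genes that DESeq2 called was not counted, and the limma share is not a measure for these 3. The groups did not overlap for 3 members, all lower in Atf4AKO, against 16.5% of all genes. The median log2 difference was -0.43 over the members and 0.05 over all genes.

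The log2 differences were -3.12 ± 0.89 for Bcl2a1d (limma adjusted p = 0.139), -2.47 ± 0.64 for Bcl2a1b (adjusted p = 0.101), -1.84 ± 0.70 for Bcl2a1a (adjusted p = 0.297) and -0.81 ± 0.19 for Bcl2 (adjusted p = 0.0775). For Bcl2a1b the highest Atf4AKO library (64.8) was below the lowest Atf4WT library (83.2), and for Bcl2a1d the values were 19.3 and 40.1. For Bcl2 these 2 libraries almost met, at 355 in Atf4AKO cold replicate 0 and 365 in Atf4WT cold replicate 0, and Bcl2a1a overlapped (22.3 against 20.5). Without Atf4WT cold replicate 0, Bcl2 and Bcl2a1b passed the limma adjusted p (0.00326 and 0.0383). The intervals of the log2 difference were -0.35 to 0.52 for Bcl2l1, -0.42 to 0.05 for Mcl1, -0.29 to 0.18 for Bax and -0.10 to 0.25 for Bak1. Bcl2l11 was lower by a log2 difference of -0.52 ± 0.21 (limma adjusted p = 0.335) and Bbc3 by -0.34 ± 0.29 (adjusted p = 0.688), with overlapping groups for both.

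The lymphocyte score moved with these differences, and so did the dendritic cell markers (8 of 8 listed), which averaged 6.48 to 7.50 in Atf4WT cold and 5.37 to 6.32 in Atf4AKO cold. In the fit that included the lymphocyte score the differences became 0.35 ± 1.22 for Bcl2a1d, 0.02 ± 0.87 for Bcl2a1b, 0.53 ± 1.05 for Bcl2a1a and -0.22 ± 0.31 for Bcl2. The score itself did not overlap between the genotypes after cold, and in this fit the standard errors were larger.

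At RT the genotypes gave 0 calls among the members by limma adjusted p, against 0.00746% of all genes (1 gene), and 0 at the DEG threshold, against 0.463%. No member had an unadjusted p under 0.05, and edgeR and DESeq2 called 0. Groups did not overlap for Bcl2, lower in Atf4AKO by a log2 difference of -0.13 ± 0.19, and for Bak1, higher by 0.12 ± 0.08, that is 2 of 10 against 6.3% of all genes. The widest difference was in Bcl2a1a, 1.17 ± 0.70 higher in Atf4AKO with overlapping groups.

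Whether cold acted differently in the genotypes was tested as an interaction, which passed for no member. By limma adjusted p 0 of 10 were called, against 0% of all genes, and edgeR and DESeq2 also called 0. At the DEG threshold 4 of 10 passed, all toward a lower response in Atf4AKO, against 4.63% of all genes (62 higher and 559 lower). These were Bcl2a1a with -3.01 ± 0.98 (limma adjusted p = 0.489), Bcl2a1d with -2.80 ± 1.26 (adjusted p = 0.714), Bcl2a1b with -2.69 ± 0.91 (adjusted p = 0.492) and Bcl2 with -0.68 ± 0.27 (adjusted p = 0.603). This comparison shares its libraries with the previous ones, and the Bcl2a1 copies are again not independent of each other. The rise of Bcl2a1a and Bcl2a1b in Atf4WT and the fall of Bcl2 in Atf4AKO were thus not shown to differ between the genotypes.

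The Bcl2a1 copies were then set beside the lymphoid signal library by library. Atf4WT cold replicates 1 and 2 had the highest lymphocyte scores (8.78 and 9.29) and the highest level of each copy. Atf4AKO cold replicate 1 had the lowest score (3.20) and the lowest Bcl2a1b and Bcl2a1d. Atf4WT cold replicate 0 and Atf4WT RT replicate 2 had nearly the same score (6.82 and 6.73) at different temperatures, and they had 83.2 and 77.9 normalized counts of Bcl2a1b, 20.5 and 15.8 of Bcl2a1a and 40.1 and 61.2 of Bcl2a1d. Those 2 libraries are also the ones with the most muscle marker signal.

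Atf4AKO RT replicate 2 departed from this order. Its score of 4.75 was close to the 4.92 of Atf4AKO RT replicate 0, but it had 99.3 against 30.7 of Bcl2a1b, 41.7 against 7.44 of Bcl2a1a and 52.0 against 15.8 of Bcl2a1d. The parts of the score went opposite ways in these 2 libraries. T cell markers (19 of 20 listed) averaged 5.74 in replicate 2 and 4.67 in replicate 0, and B cell markers (17 of 18 listed) averaged 3.65 and 5.20.

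Over the 12 libraries, Pearson's r with the lymphocyte score was 0.89 for Bcl2a1b, 0.86 for Bcl2a1d, 0.78 for Bcl2a1a, 0.77 for Bcl2l11, 0.50 for Bcl2 and Mcl1, 0.40 for Bax, 0.12 for Bbc3, 0.07 for Bcl2l1 and -0.14 for Bak1. These describe 12 points that also differ by group and share libraries with the groups compared above. After the group means were removed, r was 0.75, 0.74 and 0.68 for Bcl2a1b, Bcl2a1d and Bcl2a1a with the joint score, 0.85, 0.81 and 0.82 with the T cell markers alone and 0.55, 0.58 and 0.47 with the B cell markers alone. With dendritic cell markers it was 0.91, 0.85 and 0.75.

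The within-group relation was tested as a slope in limma, over 13368 genes without the score's own markers. Of the 10 members, 0 passed the adjusted p, against 0.808% of all genes, and 4 had an unadjusted p under 0.05, against 16.8%. These 4 were Bcl2 and the Bcl2a1 copies, which are not independent of each other. The slopes, in log2 units per unit of score, were 0.78 ± 0.23 for Bcl2a1d (limma adjusted p = 0.166), 0.56 ± 0.17 for Bcl2a1b (adjusted p = 0.166), 0.54 ± 0.20 for Bcl2a1a (adjusted p = 0.234) and 0.13 ± 0.06 for Bcl2 (adjusted p = 0.290), beside a median of -0.01 over all genes. The slope of Bbc3 was negative, -0.20 ± 0.09 (adjusted p = 0.305). With the T cell markers alone, a choice made after the data were seen, the slope of Bcl2a1b was 0.73 (limma adjusted p = 0.0522), that of Bcl2a1d 0.97 (adjusted p = 0.0918) and that of Bcl2a1a 0.73 (adjusted p = 0.112).

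The macrophage score ordered the libraries differently. Atf4WT cold replicate 1 and Atf4AKO cold replicate 1 shared the lowest macrophage scores (9.08 and 8.20), but Bcl2a1b was 183 in the former and 14.7 in the latter. In the same limma model 0 of 10 members passed, against 5.21% of all 13391 genes tested. Bbc3 alone had an unadjusted p under 0.05, that is 1 of 10, against 17.5% of all genes. The slopes were 0.81 ± 0.44 for Bcl2a1d, 0.37 ± 0.34 for Bcl2a1b and 0.03 ± 0.39 for Bcl2a1a. For Bcl2a1d this was close to its slope on the lymphocyte score (0.78 ± 0.23). After the group means were removed, r with the macrophage score was 0.51, 0.32 and 0.03 for Bcl2a1d, Bcl2a1b and Bcl2a1a. Slopes on the macrophage and lymphocyte scores were not tested against each other.

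**Figure D4:**
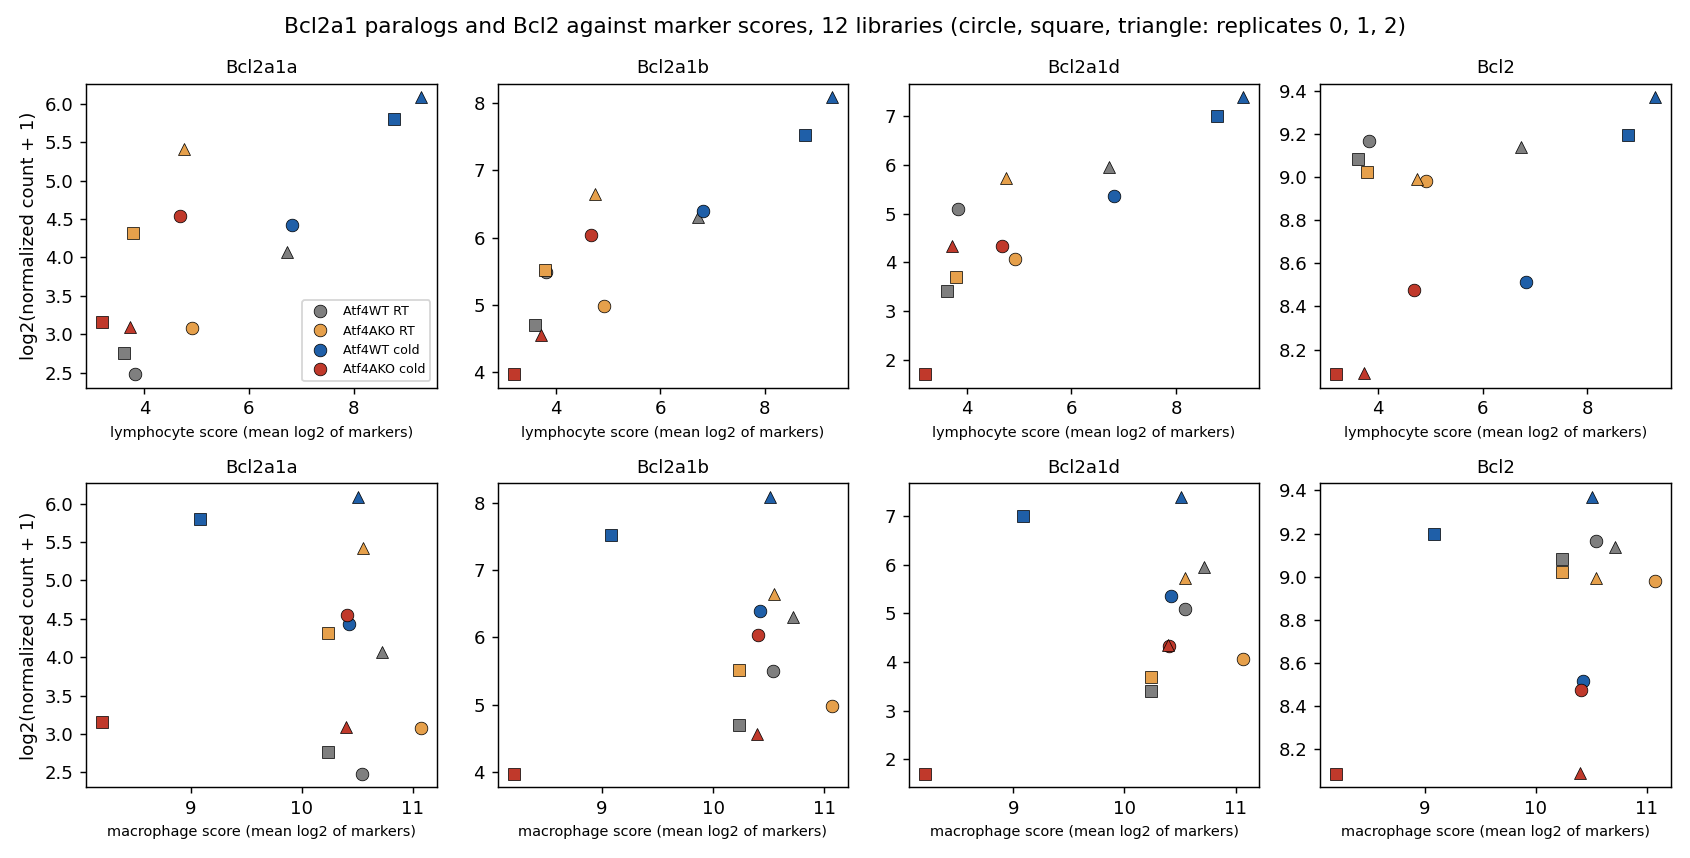
Log2(normalized count + 1) of the 3 Bcl2a1 copies and Bcl2 (y axis) against the lymphocyte score (upper row) and the macrophage score (lower row), each the mean log2 value of the listed markers, in 12 libraries coloured by group. The copies are highest at lymphocyte scores of 8.78 and 9.29, both Atf4WT cold, while Bcl2 is lowest in Atf4AKO cold and low in Atf4WT cold replicate 0.

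For Bcl2 the within-group r was 0.62 with the lymphocyte score, 0.82 with the T cell markers and 0.38 with the B cell markers. In Atf4WT and Atf4AKO at RT it stayed between 505 and 574 while the score ran from 3.61 to 6.73. In the cold it was 365, 586 and 660.2 at scores of 6.82, 8.78 and 9.29 in Atf4WT, and 355, 271 and 272 at scores of 4.68, 3.20 and 3.72 in Atf4AKO.

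The members were also compared with 11842 genes that had a mean of at least 50 normalized counts, by Pearson's r over the 12 libraries. The genes most like the mean of the 3 Bcl2a1 copies were Cd52, Gimap3, Stat4, Itgal, Myo1g, Pglyrp2, Rinl, Unc13d, B4galnt1 and Sh2d2a, with r from 0.961 to 0.976. Bcl2 was most like Relb (0.965), Dock10 (0.964) and Fam107b (0.957), and Bcl2l11 most like Exoc3l4 (0.961), Mndal (0.930) and Zfp217 (0.929). For Mcl1 they were Ppp1r18 (0.917), Card6 (0.898) and Inpp5b (0.896), and for Bak1 Cops7a (0.910), Msra (0.899) and Nol6 (0.898). For Bcl2l1, Bax and Bbc3 the nearest genes were less alike, namely Slc35e4 (0.854), Aprt (0.848) and Dtwd2 (0.822). Among the members, r was 0.93 between Bcl2a1b and Bcl2a1d, 0.89 between Bcl2a1a and Bcl2a1b, 0.80 between Bcl2 and Mcl1, and -0.54 between Bcl2 and Bak1.

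Of a wider list of 69 apoptosis genes, 67 were listed and 65 tested. In Atf4WT 11 rose and 5 fell with cold, and in Atf4AKO 11 rose and 6 fell, beside the 31.9% and 25.9% of all genes. Between the genotypes after cold the limma adjusted p called 0 of 65, edgeR 0 and DESeq2 2, and the share of all genes that DESeq2 called was not counted. At an unadjusted p under 0.05 limma had 8 of 65, against 11.7% of all genes. At RT limma called 0 by adjusted p and 1 of 65 at an unadjusted p under 0.05, against 1.53% of all genes.

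Among 14 other tested Bcl2 relatives, 2 rose and 3 fell in Atf4WT, and 1 rose and 2 fell in Atf4AKO. Hrk, a BH3-only gene, changed by -1.89 ± 0.58 in Atf4WT, Bnip3, a mitophagy receptor, by -0.93 ± 0.18, and Bid, which links death receptors to mitochondria, by -0.60 ± 0.17. Bcl2l10 rose by 0.89 ± 0.28, and Bcl2l13 also rose. In Atf4AKO Bid (-0.62) and Bnip3 (-0.53) fell and Bcl2l13 (0.45) rose. Hrk (-1.57 ± 0.58, limma adjusted p = 0.0681) and Bcl2l10 (0.71 ± 0.28, adjusted p = 0.0859) did not pass there, but their differences had the same direction as in Atf4WT. The Hrk values rest on 5, 14 and 4 reads in Atf4WT cold and 3, 4 and 17 in Atf4AKO cold. Pmaip1, which encodes the BH3-only protein NOXA, passed no adjusted p, with a log2 difference of 1.85 ± 0.69 in Atf4WT (limma adjusted p = 0.0617) and of -1.55 ± 0.69 between Atf4AKO and Atf4WT after cold (adjusted p = 0.409).

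The 15 genes of the apoptosome and caspases gave 3 that rose in either genotype. Cycs, cytochrome c of the respiratory chain, rose by 1.81 ± 0.19 in Atf4WT and 1.77 ± 0.19 in Atf4AKO, Endog by 0.81 and 0.63, and Aifm1 by 0.51 and 0.59. Cycs and Aifm1 are also known to serve respiration. Of 7 caspase inhibitors Xiap fell in Atf4WT, by 0.25 on the log2 scale, and none changed in Atf4AKO. Birc3, an inhibitor that NF-kB is known to induce, was lower by -1.02 ± 0.24 in Atf4AKO than in Atf4WT after cold, past the DEG threshold but not the adjusted p (limma, 0.0783).

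Of 9 death receptor genes none passed in Atf4WT, and in Atf4AKO Fasl, the Fas ligand of cytotoxic lymphocytes, changed by -1.75 ± 0.45 (limma adjusted p = 0.0162). Of 20 tested upstream regulators 6 rose and none fell in Atf4WT, and 7 rose and 2 fell in Atf4AKO. Cdkn1a, the p53 target p21, rose by 1.14 ± 0.14 and 1.66 ± 0.14, Ddit3, which encodes CHOP, by 0.76 ± 0.20 and 0.73 ± 0.20, and Vdac2, a channel that holds BAK, by 0.69 ± 0.10 and 0.76 ± 0.10. Vdac3, a related channel, rose by 0.52 and 0.49. Foxo3, a regulator of Bcl2l11 and Bbc3, fell in Atf4AKO by 0.94 on the log2 scale (limma adjusted p = 0.0252), and its log2 difference in Atf4WT was -0.66 (adjusted p = 0.083).

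**Figure D5:**
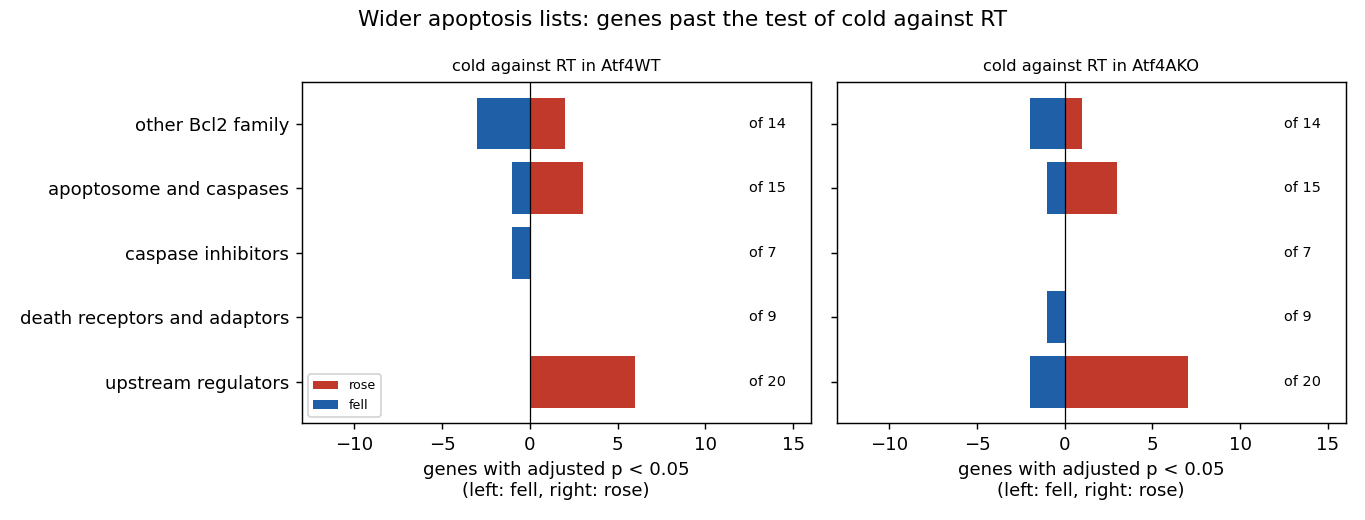
Number of genes of 5 apoptosis lists that rose (right) or fell (left) with cold at a limma adjusted p under 0.05 (x axis), in Atf4WT (left panel) and Atf4AKO (right panel), with the number tested at the right. The upstream regulators hold the most, with 6 of 20 rising in Atf4WT and 7 of 20 in Atf4AKO.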

How the data were processed

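RNA of iWAT from 12 mice was used, 3 in each of 4 groups, with 0 columns omitted. The signal deposited by the authors is a normalized count. Reads had been filtered (SOAPnuke), aligned to mm10 (STAR), assigned to genes if uniquely mapped (featureCounts) and divided by DESeq2 size factors (pyDESeq2). Versions and the strand setting are not given in the sources used here. Division by the smallest value of a library gave whole reads in 100% of values, to within 0.001 reads. Genes without a read in some library are not listed.

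Tests used limma 3.58.1 in R 4.3.3 (lmFit and eBayes with a trend) on log2(normalized count + 1), over 13404 genes whose mean reached 10, with 4 group means and Benjamini-Hochberg adjustment over all of them. Fold changes are on this scale, which understates those of low genes such as Bcl2a1a. Slopes added the score of each library to the model. Alternatives were edgeR 4.0.16 and DESeq2 1.42.0 on recovered reads, other pseudocounts and filters, rescaling, the replicate block, the lymphocyte score and leaving out each library. Shares of all genes called were counted for the main limma fits alone, so counts from the alternatives have none beside them. The methods of the study name DESeq2 for DEGs. All 10 members were named, with up to 4 genes by size from each wider list (Pmaip1 and Birc3 were named after their values were seen), and the genes most like each member. The members, lists and tests were chosen with earlier results of these data known. Tests were checked on simulated data. No protein sequence was used here. 1 gene of the wider lists is counted but not reported here by name.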

Additional observations from a re-analysis of the deposited data

How the results depend on the processing

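A direction was taken as given where the unadjusted p was under 0.05 in either fit. Counts of members past the limma adjusted p in Atf4WT cold against RT (2) became 0 with a filter at a mean of 50 and with the lymphocyte score in the model, 1 with the 75th percentile rescaling and with edgeR, and 3 with DESeq2. They ran from 0 to 3 without 1 library, with 3 without Atf4WT cold replicate 0 and 0 without Atf4WT RT replicate 0 or 1 or Atf4WT cold replicate 1 or 2. Bcl2a1a is below the filter at 50. The DEG count there (2) became 1 with the filter at 50 and with the lymphocyte score, and ran from 1 (without Atf4WT cold replicate 2) to 4 (without Atf4WT cold replicate 0). In Atf4AKO cold against RT the DEG count (1) ran from 1 to 2 (without Atf4AKO cold replicate 0), and the wider list count (17) from 11 to 17, with 11 without Atf4AKO RT replicate 0. For Atf4AKO against Atf4WT after cold the count of members past the adjusted p (0) became 3 with DESeq2 and ran from 0 to 2 (without Atf4WT cold replicate 0). The DEG count there (4) became 2 with the filter at 50, which leaves out Bcl2a1a and Bcl2a1d, and 1 with the lymphocyte score, that member being Bbc3. The wider list count (0) became 1 with the replicate block and 2 with DESeq2, and ran from 0 to 1 (without Atf4WT cold replicate 0). At RT the DEG count (0) became 1 with the lymphocyte score, that member being Bcl2a1a, and ran from 0 to 1 (without Atf4WT RT replicate 2 or Atf4AKO RT replicate 0). The DEG count of the difference of cold responses (4) became 2 with the filter at 50 and 1 with the lymphocyte score, and ran from 2 to 5 without 1 library (2 without Atf4WT RT replicate 1, Atf4WT cold replicate 1 or Atf4WT cold replicate 2). With the lymphocyte score the log2 differences turned sign for Bcl2a1b in Atf4WT cold (-0.18), for Bcl2a1a (0.53), Bcl2a1b (0.020) and Bcl2a1d (0.35) between the genotypes after cold, and for Bcl2a1d in the difference of cold responses (0.49). The slope of Bbc3 on the macrophage score ran from -0.43 (without Atf4WT cold replicate 1) to 0.013 (without Atf4AKO cold replicate 1). The cause of these changes was not tested, apart from the genes the filter removes. The replicate numbers were not taken as pairs, since only 9 of 18 same-numbered pairs had correlations of their deviations over 0.1 (-0.19 to 0.39), among them all 6 pairs of replicate 1, and libraries matched their own number best in 17 of 36 cases. The replicate block changed no member's call by adjusted p, and with it Bcl2a1d also passed the DEG threshold in Atf4WT cold (unadjusted p = 0.0235 in limma), for a DEG count of 3. The 75th percentile rescaling moved libraries by -0.07 to 0.06 on the log2 scale. The number of mice and, for Bcl2a1a, Bcl2a1d, Hrk and Fasl, reads as few as 2 limit what can be detected.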
